A study of Drosophila melanogaster with 9 samples.

Results

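The chemosensory receptor genes of Drosophila melanogaster were examined as genes expected to be silent in photoreceptors. They were the rows of the count table whose FlyBase identifier maps to a symbol of Or, Gr or Ir followed by a digit, or to Orco. This rule took 180 of the 13947 genes in the table, with 60 olfactory receptors (Or, Orco included), 60 gustatory receptors (Gr) and 60 ionotropic receptors (Ir). Nuclear RNA-seq gave a read count for each gene in 3 shSet2 libraries, labelled as biological replicates 1, 2 and 3. The flies were males, 10 days old, taken at ZT6 (6 h into the light phase). All 3 libraries share 1 genotype in a w, ry[506] background: UAS-GFP-Msp300KASH at attP2, which tags the nuclear membrane with GFP, P{rh1-GAL4}3, and a UAS hairpin RNA (TRiP.HMJ02076, labelled siSet2) against Set2, an H3K36 methyltransferase gene. The rh1-GAL4 driver is active in outer photoreceptors from late pupal development, so both the tag and the hairpin are restricted to the cells in which it is on. Tagged nuclei were pulled with an anti-GFP antibody out of homogenates of whole heads. RNA-seq libraries of shControl photoreceptors and the ATAC-seq libraries were not analysed here. Every value thus describes head nuclei of shSet2 flies enriched for photoreceptors, and none measures an effect of Set2.

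Insects smell and taste with 3 large families of receptor genes. Olfactory receptors are ion channels made of a ligand-binding Or subunit and the shared co-receptor Orco. Those olfactory neurons of the antenna or maxillary palp that use this family express Orco and usually a single ligand-binding Or. Gustatory receptors detect sugars, bitter compounds and carbon dioxide, mostly in neurons of the mouthparts and legs. Ionotropic receptors descend from the ionotropic glutamate receptors. They sense acids, amines, humidity, temperature and tastants, and most work with the co-receptors Ir8a, Ir25a, Ir76b or Ir93a. Antennae, palps and mouthparts are all parts of the head, whereas the outer photoreceptors of the compound eye are not known to use these receptors.

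Total counts were 3657491, 3794547 and 4960498. Set2, the target of the hairpin, had 313, 370 and 369 counts in replicates 1, 2 and 3. The 14 phototransduction and rhabdomere genes taken as photoreceptor markers, from ninaE (Rh1 opsin) to norpA (phospholipase C), all passed 10 counts in every library. They took 8.53% ± 0.16 of the counts (SD, n = 3). Markers of other head cells (glia, muscle, fat body, hemocytes and neurons outside the retina) also had counts, with 13 of 16 at 10 or more in each library. This was 81.25%, against 41.6% of all genes. Of these, repo, moody, alrm, ChAT, VAChT, Gad1 and apolpp have spans that overlap another gene with at least 10 counts in every library. Their counts in a shared stretch cannot be told apart from those of the other gene. Together the 16 took 1018, 782 and 743 CPM (counts per 1000000 counts, for sums over genes always of the unscaled library total) in replicates 1, 2 and 3. Of the muscle genes, Mhc had 162, 44 and 76 counts in these replicates, while the flight muscle genes Act88F and TpnC4 were at 0. In bulk libraries, fewer cells of a type and less RNA per cell cannot be told apart.

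Most chemoreceptors had no or almost no counts. At 0 in every library were 95 of the 180 genes (52.8%), against 21.6% of all genes, and 54 others had 1 to 3 counts summed over the 3 libraries. At least 10 counts in every library was the level taken here as an exception to silence. It was reached by 8 chemoreceptors (4.44%), against 41.6% of all genes. Of 56 eggshell, accessory gland, testis and larval glue genes, 5 (8.93%) reached it too. Reaching it therefore does not by itself show that a gene is expressed in photoreceptors. A lower bar, more than 3 counts in every library, was passed by 12 chemoreceptors (51.5% of all genes). The floor of 3 counts corresponded to 0.813, 0.794 and 0.608 CPM, which for single genes is on TMM-scaled totals, in replicates 1, 2 and 3. A count of 0 in all 3 libraries allows a level of up to 0.242 CPM of their summed total. These limits cover counting error alone. The median chemoreceptor had 0 counts over the 3 libraries, whereas the median of all genes was 21.

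**Figure D1:**
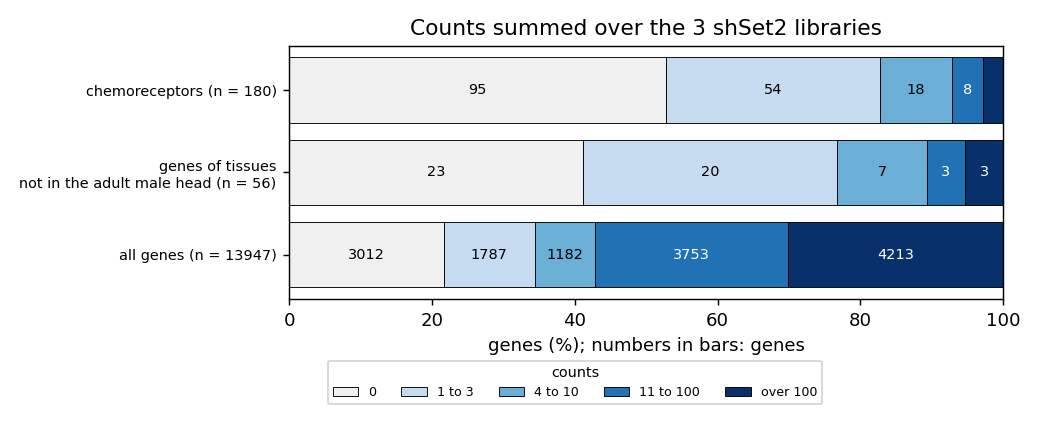
Each bar splits a set of genes by counts summed over the 3 shSet2 libraries (x axis, percent of genes; numbers in the bars are genes). Of the 180 chemoreceptors 95 were at 0 and 5 had over 100 counts, the unlabelled dark end of the top bar; the middle bar holds 56 eggshell, accessory gland, testis and larval glue genes, and the bottom bar all 13947 genes.

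By family, 29 of 60 Or genes (48.3%), 37 of 60 Gr genes (61.7%) and 29 of 60 Ir genes (48.3%) were at 0 in every library. The share over all genes was 21.6%. At least 10 counts in every library were reached by 3 Or genes (Or43b, Or71a and Or46a), 1 Gr gene (Gr2a) and 4 Ir genes (Ir41a, Ir62a, Ir68a and Ir31a). These were 5.0%, 1.67% and 6.67% of the families, against 41.6% of all genes. Median counts per gene over the 3 libraries were 1 for Or, 0 for Gr and 1 for Ir. The families thus differed in their few leading genes: Ir genes held 3897 counts, Or genes 386 and Gr genes 159.

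The co-receptors, on which most of the other receptors depend, were near 0. Orco (FBgn0037324), the shared olfactory co-receptor, had 0, 0 and 2 counts in replicates 1, 2 and 3. Ir8a, co-receptor of acid-sensing antennal Irs, was at 0 in every library. Ir25a, the most widely used Ir co-receptor, had 2, 2 and 3 counts. Ir76b had a single count, in replicate 1, and Ir93a had 2, 1 and 0 counts. None of the 5 co-receptors exceeded the floor in any library.

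Ligand-binding receptors of the sense organs were counted by list. The lists are short, and differences between them were not tested. Of 39 Or genes of the adult antenna, 21 were at 0 in every library (53.8%, against 21.6% of all genes). These included Or22a, a receptor for fruit esters, Or67d, the receptor for the male pheromone cis-vaccenyl acetate, and Or88a, another trichoid receptor. Or22b and Or42b had 2 counts each over the 3 libraries, and Or47b and Or59b had 1 each. Of the 13 Or genes known mainly from larvae, 5 were at 0 (38.5%), none passed the floor in all libraries, and the highest, Or63a, had 4, 4 and 2 counts. Among taste receptors, 7 of the 9 sugar receptors were at 0 (77.8%), Gr64f among them. For 4 of these 7 (Gr64b, Gr64c, Gr64d and Gr64e) the spans overlap another receptor and a 0 cannot be read as silence, which leaves 3. Of those, Gr64f overlaps CG11593, a gene with at least 10 counts in every library. Gr5a overlaps an antisense RNA gene, and Gr64a overlaps no gene. Gr61a had 2 counts in each library and the fructose receptor Gr43a had 1, 1 and 0. The carbon dioxide receptors Gr21a and Gr63a had 1 and 2 counts over the 3 libraries. Gr66a, which marks bitter-sensing neurons, had 4, 2 and 1 counts. Gr28a was at 0 and Gr28b, a receptor linked to light and heat avoidance in other neurons, had 0, 2 and 0 counts. Of the 13 antennal Irs other than co-receptors, 2 were at 0 in every library (15.4%, against 21.6% of all genes), and 3 had at least 10 counts in each, Ir41a, Ir68a and Ir31a (23.1%). The 13 held 3107 counts, of which the other 10 held 26, and the 2 at 0 were Ir84a and Ir92a, which detect food-derived aromatics and amines. Of the sacculus and arista Irs for humidity and temperature other than Ir68a, Ir40a had 0, 2 and 1 counts, Ir64a, an acid sensor, 0, 1 and 0, and the cooling receptor Ir21a 7, 0 and 0.

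Support genes of the olfactory sensilla were measured the same way. At least 10 counts in every library were reached by 1 of the 9 (11.1%), against 41.6% of all genes. This gene was Obp19d, an odorant-binding protein also found in taste organs, with 93, 59 and 75 counts. The antennal genes Obp83a, Obp83b and a10 were at 0, lush (the odorant-binding protein of trichoid sensilla) had 2 counts over the 3 libraries, and Snmp1, a pheromone co-receptor, had 11, 4 and 5. None of the 4 ciliated mechanosensory genes nompC, nompA, nan and iav had 10 counts in every library, and their sum was 20, 6 and 8 counts in replicates 1, 2 and 3.

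Ir41a (FBgn0040849), an antennal receptor for polyamines that works with Ir76b, stood apart from all the other chemoreceptors. It had 794, 904 and 878 counts in replicates 1, 2 and 3, which is 215, 239 and 178 CPM, a level of 211 ± 30.9 CPM (SD, n = 3). This single gene held 58.0% of all chemoreceptor counts. Its span on chromosome arm 2R runs from 4917519 to 5021955 in the Release 6 plus ISO1 MT annotation, 104 kb, against a median below 2 kb for the family. No other annotated gene overlaps it. The nearest genes with at least 10 counts in every library lie 86.9 kb away (CG14464) and 68.6 kb away (CG3107), and CG44102, 9.83 kb away, was at 0. On the side of CG3107, lncRNA:CR44105 lies 10.0 kb away and is not among the rows of the count table. TpnC41C, 43.3 kb away on that side, had 11, 4 and 1 counts. Density over exons was not measured for any gene. Per kb of span, introns included, Ir41a had 24.7 counts, below Ir62a, Ir68a, Or43b, Or71a, Ir85a and Gr2a. Its co-receptors Ir76b and Ir25a were at the levels given above.

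Ir68a (FBgn0036150), required for sensing moist air, had 94, 148 and 205 counts, or 25.5, 39.2 and 41.5 CPM (35.4 ± 8.67, SD, n = 3). Replicate 1 was the lowest library, and all 3 were far above the floor. Its span (3L, 11232972 to 11236218) overlaps no annotated gene and holds 138 counts per kb. CG42671, with 5628 counts over the 3 libraries, lies 2.23 kb away on the side of lower coordinates. Several lncRNA genes lie within 2 kb on both sides, the nearest 281 bases away, and are not among the rows of the count table. Ir93a and Ir40a, which act beside Ir68a in humidity sensing, were at or under the floor.

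Ir31a (FBgn0051718), an acid receptor of antennal coeloconic sensilla, had 14, 19 and 25 counts, or 4.63 ± 0.72 CPM (SD, n = 3). Its span (2L, 10405565 to 10408197) overlaps no gene, but RpS27A and Ip259 lie 154 bases from it, with 219 and 152 counts over the 3 libraries. On the other side, at 361 bases, lie LSm-4 and CG17768, which share a single span and were both at 0.

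**Figure D2:**
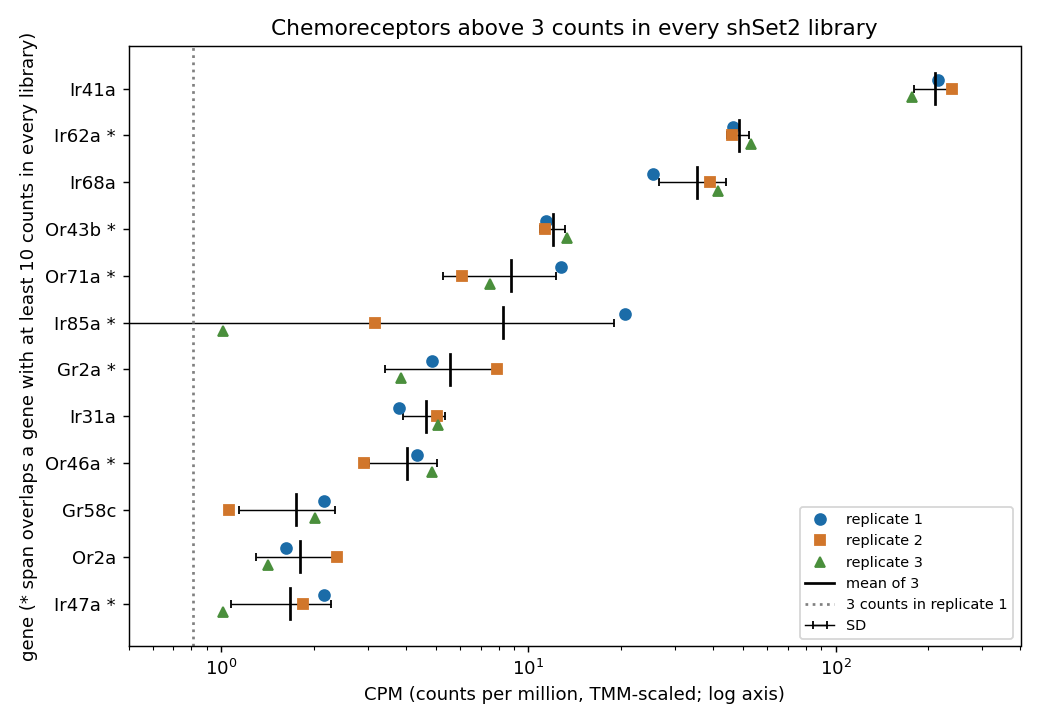
CPM (log x axis) of the 12 chemoreceptors above 3 counts in every library, one symbol per replicate, with the mean and SD over the 3 libraries and a dotted line at 3 counts in replicate 1; asterisks mark genes whose span overlaps a gene with at least 10 counts in every library. Ir41a, at 178 to 239 CPM, lies far above the rest, and Ir85a, whose SD bar runs off the axis, has a spread wider than its mean.

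The other 5 genes with at least 10 counts in every library all overlap a gene that itself had at least 10. Whether reads were counted by strand is not stated, so counts in a shared stretch cannot be told apart from those of the overlapping gene. The shared stretch is the whole span for Ir62a and Or71a, part of it for Or43b and Gr2a, and 4 bases for Or46a. Ir62a (FBgn0053971), a taste receptor gene needed for calcium avoidance, had 171, 174 and 262 counts, or 48.5 ± 3.99 CPM (SD, n = 3). It lies wholly within Iml1 (3L, 1523414 to 1534034), which encodes a subunit of the TORC1-inhibiting GATOR1 complex and had 766, 734 and 924 counts. Ir62a took 18.2%, 19.2% and 22.1% of the counts of both genes, with 95% Wilson intervals that overlap each other in all 3 libraries (15.9% to 20.9%, 16.7% to 21.9% and 19.8% to 24.5%). These and all other intervals treat reads as independent and cover counting error only, not variation between libraries. At 333 counts per kb of span, introns included, it was the densest chemoreceptor by this measure.

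Or43b (FBgn0026393), an antennal receptor, had 42, 43 and 66 counts (12.0 ± 1.15 CPM). A stretch of 745 bases, 42.1% of its span, lies within Cul1, a cullin of the ubiquitin system with 1918 counts over the 3 libraries. The histone demethylase gene Kdm4A, with 413 counts, lies 170 bases from it. Or71a (FBgn0036474), a receptor of the maxillary palp, had 47, 23 and 37 counts (8.77 ± 3.50 CPM) and lies wholly within Plp, which encodes a centrosomal pericentrin-like protein and had 657, 698 and 805 counts. The share of Or71a in the counts of both was 6.68% (5.06% to 8.77%) in replicate 1, 3.19% (2.13% to 4.74%) in replicate 2 and 4.39% (3.20% to 5.998%) in replicate 3.

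Gr2a (FBgn0265139), a gustatory receptor, had 18, 30 and 19 counts (5.55 ± 2.13 CPM), 0.10%, 0.17% and 0.11% of its counts and those of futsch together. futsch encodes a microtubule-associated protein of neurons, covers 71.9% of the Gr2a span and had 52384 counts over the 3 libraries. Or46a (FBgn0026388), the second palp receptor among the exceptions, had 16, 11 and 24 counts (4.04 ± 1.01 CPM). Its span meets that of CG12917 (72 counts) by 4 bases, 0.14% of it, so nearly all of the span lies outside that gene. An antisense RNA gene with no row in the count table, asRNA:CR43467, covers all of it. Of the 7 palp receptors, 2 (Or71a and Or46a, 28.6%) had at least 10 counts in every library, against 41.6% of all genes. The other 5 had at most 2 counts over the 3 libraries.

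**Figure D3:**
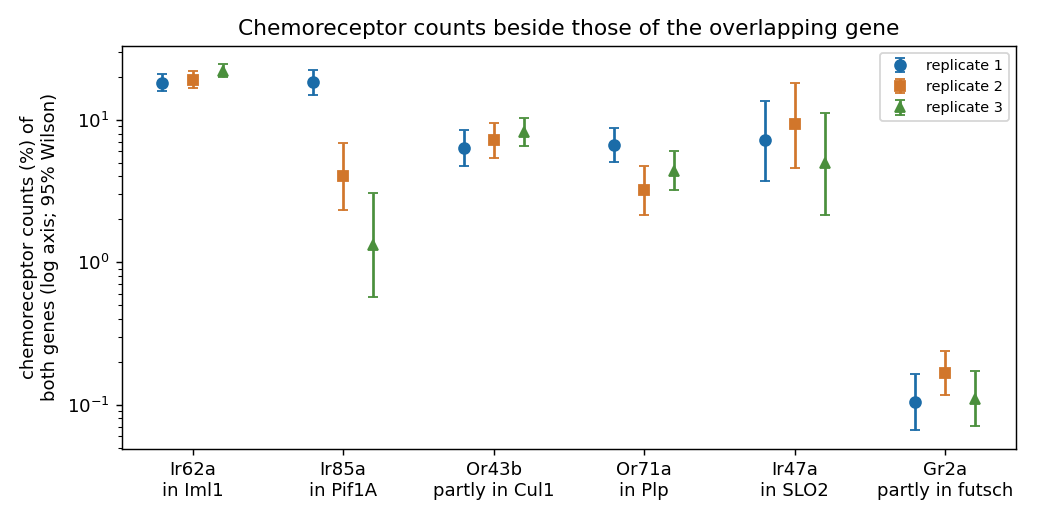
Counts of 6 chemoreceptors as a percent of their own counts plus those of the overlapping gene (log y axis), per replicate, with 95% Wilson intervals. Ir62a stays between 18.2% and 22.1% of both, whereas Ir85a is at 18.4% in replicate 1, with 4.03% and 1.33% in replicates 2 and 3.

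Another 4 genes were above the floor in every library without reaching 10 in each. Ir85a (FBgn0037630) had 76, 12 and 5 counts in the 3 libraries. Its mean of 8.26 CPM had an SD of 10.7 (n = 3), and rests on replicate 1, at 20.6 CPM, with 3.17 and 1.01 CPM in replicates 2 and 3. It lies within Pif1A, whose counts were 336, 286 and 371, so the uneven counts of Ir85a were not matched by the gene around it. Ir47a, within the potassium channel gene SLO2 (103, 68 and 96 counts), had 8, 7 and 5 counts. Or2a and Gr58c overlap no gene and had 6, 9 and 7, and 8, 4 and 10 counts. Or2a lies 26 bases from crn and 189 bases from fs(1)K10, which had 38 and 262 counts over the 3 libraries. Gr58c lies 275 bases from CG9304, with 176 counts, and 257 bases from Gr58b, at 0. The genes nearest to the bar of 10 counts were therefore Or46a and Ir31a just inside it, with lowest libraries of 11 and 14 counts, and Or2a, Ir85a, Ir47a and Gr58c just outside, with lowest libraries of 6, 5, 5 and 4.

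The chemoreceptors were also grouped by position, a split made after the values were seen. Of the 31 chemoreceptors whose span overlaps a gene with at least 10 counts in every library, 5 (16.1%) had at least 10 themselves (46.1% of all protein-coding genes so placed) and 7 were at 0 (13.2% of those genes). Of the 127 that overlap no gene, 3 (2.36%) had at least 10 (37.8% of such protein-coding genes) and 71 were at 0 (25.9%). Of the 22 that overlap other genes only, none had at least 10 (45.7%) and 17 were at 0 (670 of 3349 such protein-coding genes). Median counts over the 3 libraries were 2, 0 and 0 in these groups. In each position the share of chemoreceptors with at least 10 counts lay below that of protein-coding genes placed alike. These shares are a description, with no test.

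A count of 0 was not informative for a few members. Gr64b and Gr64c share a start and an end in the annotation, as do Or10a and Gr10a, and Gr64d overlaps Gr64e; all 6 were at 0. Across the table, 159 sets of genes share their start and end, and in 134 of them every gene was at 0. LSm-4, a gene of the spliceosome, is one of these. The 0 counts of these 6 chemoreceptors can therefore not be read as silence.

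The level of background was taken from the members themselves and from genes of other tissues. The 172 chemoreceptors under 10 counts in some library averaged 0.73 counts per gene and library (0.187 CPM). The same value was 0.45 for Or, 0.52 for Gr and 1.24 for Ir genes. The Ir value rests on Ir85a and on replicate 1, since it was 0.70 without that gene and 0.63 without that library. Genes of the eggshell, accessory gland, testis and larval salivary glue, which have no known source in adult male heads, averaged 0.59 counts per gene and library over the 51 of 56 genes under 10 counts in some library (0.146 CPM). These averages leave out the genes with at least 10 counts in every library, so they are low by construction. Over all 56 the average was 4.16, and 2.72 without S-Lap1, the highest of them. Of these 56 genes 23 were at 0 (41.1%), and 5 had at least 10 counts in every library (8.93%), so a count of 10 was also reached by genes with no such source.

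Low counts were also compared by library, with intervals for counting error only, so no difference between libraries was tested. The 168 chemoreceptors not above the floor in every library summed to 107, 60 and 54 counts in replicates 1, 2 and 3. In CPM of the library total, they stood at 29.3 (95% Wilson interval 24.2 to 35.3) in replicate 1, 15.8 (12.3 to 20.4) in replicate 2 and 10.9 (8.34 to 14.2) in replicate 3. The gap was widest among the 24 members that overlap a gene with at least 10 counts, at 11.2 CPM (8.26 to 15.2), against 2.37 (1.25 to 4.51) and 1.61 (0.82 to 3.18) in replicates 2 and 3. Among the 122 that overlap no gene, replicate 1 had 14.8 (11.3 to 19.3), replicate 2 12.4 (9.32 to 16.5) and replicate 3 8.06 (5.92 to 10.98). Several single genes had nearly all of their counts in replicate 1: Ir60a, within nord, had 13, 2 and 0, Gr39a, within Mondo, 8, 0 and 1, and Ir48c, within the FGF gene ths, 7, 2 and 0. The genes around them did not share this pattern, with 601, 706 and 743 counts for nord, 398, 452 and 517 for Mondo and 2372, 2627 and 3549 for ths. These 3 receptors are among the 24 members and held most of the 41 counts of that group in replicate 1, so its gap rests largely on them. They were picked after their values were seen.

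Replicate 1 also had more low counts in the whole table. All 6770 genes not above the floor in every library took 2546 CPM there, 1715 in replicate 2 and 1628 in replicate 3. A count was found on 10084 genes in replicate 1, the library with the fewest counts, against 9516 and 9587 in replicates 2 and 3. The 50 genes of tissues outside the adult male head that were not above the floor stood at 7.38 (5.07 to 10.7), 4.48 (2.80 to 7.18) and 5.24 (3.58 to 7.68) CPM, with intervals that overlap each other. The ciliated mechanosensory genes were at 5.47, 1.58 and 1.61 CPM. The 16 markers of other head cells were at 1018, 782 and 743 CPM, but the fat body gene apolpp held 75.9% of their counts, and without it the sums were 235, 167 and 203 CPM. The muscle gene Mhc was highest in replicate 1, at 43.9, 11.6 and 15.4 CPM. Another fat body gene, Lsp2, ran the other way, at 10.0, 25.4 and 44.8 CPM. Their part in the low chemoreceptor counts was not tested.

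**Figure D4:**
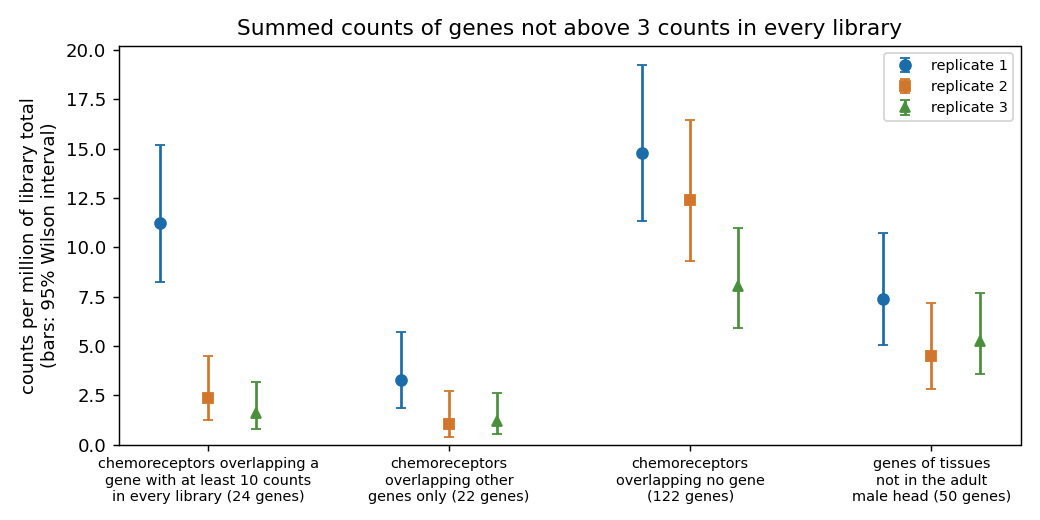
Summed CPM of genes not above 3 counts in every library (y axis), per replicate, with 95% Wilson intervals, for chemoreceptors by position and for 50 genes of tissues not found in the adult male head. Replicate 1 stands at 11.2 CPM among chemoreceptors that overlap a gene with at least 10 counts in every library, with replicates 2 and 3 at 2.37 and 1.61. Most of the replicate 1 counts of that group are on Ir60a, Gr39a and Ir48c. The 50 genes of other tissues are at 7.38, 4.48 and 5.24, and the intervals cover counting error only.

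All 180 chemoreceptors together took 383 CPM (95% Wilson interval 364 to 404) in replicate 1, 381 (361 to 401) in replicate 2 and 322 (307 to 338) in replicate 3, or 362 ± 34.6 (SD, n = 3). Without Ir41a the sum was 151 ± 13.0. With the 8 genes that had at least 10 counts in every library left out, 32.2 ± 21.0 CPM remained (56.0, 24.2 and 16.3 in replicates 1, 2 and 3). This mean rests on replicate 1, without which it was 20.3, and on Ir85a, without which it was 23.9 ± 10.3. Both alternatives were chosen after seeing the data. Of the 4442 chemoreceptor counts, 4064 (91.5%) fell on those 8 genes.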

How the data were processed

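The authors deposited whole-number read counts per gene for 3 shSet2 libraries, without normalization. STAR, Trimmomatic, SAMtools and DESeq2 and the builds dm6 and BDGP6 stand in the submitters' processing notes with no role given. The counting tool and its use of strand are not given in the sources used here. A blank row was left out. Counts were scaled with TMM factors of 1.009, 0.996 and 0.995 (edgeR 4.0.16, R 4.3.3), computed on genes with at least 10 counts in every library. Symbols were matched for 13884 of 13947 identifiers. Spans came from the RefSeq table of Release 6 plus ISO1 MT, which held all 180 chemoreceptors and no strand, and an overlap of 1 base was counted. Shares of single libraries carry 95% Wilson intervals (scipy 1.17.1). With 1 group there was no test between conditions. The scaling was tested on simulated counts.

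Genes named are those with at least 10 counts in every library, the 10 with the most counts (ties kept), the co-receptors, a fixed list of well-known receptors, the leading genes of each comparison list, and genes that overlap or neighbour a named member. Other names were picked with their values in view. The members and lists were chosen with earlier results of these data known. Alternatives were other count minimums, DESeq2 1.42.0 size factors, unscaled totals, leaving out overlapping genes, and leaving out each replicate.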

Additional observations from a re-analysis of the deposited data

How the results depend on the processing

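No paired analysis was possible because counts of 1 group of libraries alone were analysed. The number of chemoreceptors with at least 10 counts in every library was 8. It was 11 at 5 counts, 5 at 20 counts, 23 at 1 count, and 9 where 10 counts in at least 2 of 3 libraries sufficed. Leaving out a replicate gave 8 to 9, and 3 remained without members that overlap another gene. The number above the floor was 12, from 12 to 13 with a replicate left out, and 5 without members that overlap another gene. The number at 0 was 95, and 105 to 118 with a replicate left out, the highest without replicate 1. The share of counts on chemoreceptors was 0.0362%, from 0.0351% to 0.0382% with a replicate left out. It was 0.0266% without members that overlap another gene, and 0.0151% without Ir41a. Leaving out instead the members that overlap a gene with at least 10 counts in every library, chosen after seeing the data, gave counts of 3 and 5 and a share of 0.0268%. These shifts follow from the genes left out or the bar set. For 34 named chemoreceptors, none of 68 CPM values with another scaling and none of 102 without a replicate moved by 1 SD. Leaving out 1 of 3 values cannot by itself move their mean that far, so the outcome for replicates carries no information. Genes at 0 in every library cannot move at all. Depth limits every gene at or under 3 counts.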

Other observations

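Some genes with no known source in the heads of adult males also reached 10 counts. Of the 56, 5 (8.93%) had at least 10 in every library, against 4.44% of the chemoreceptors and 41.6% of all genes. S-Lap1, a leucyl aminopeptidase of sperm, had 71, 86 and 93 counts in replicates 1, 2 and 3, with no annotated gene overlapping it. The eggshell gene Vm32E had 37, 43 and 42 counts and overlaps Ca-beta, a calcium channel subunit gene. Ca-beta either had under 10 counts in some library or had no matched row in the count table, and these were not told apart. The larval glue gene Sgs4 had 33, 32 and 36 counts and overlaps dnc, the cAMP phosphodiesterase gene, while Sgs1 had 26, 14 and 18 counts and overlaps no gene. The accessory gland gene Acp53C14c had 21, 26 and 30 counts with no overlapping gene. The other 51 genes of these lists had 91 counts in all 3 libraries together.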
